A study of Rattus norvegicus with 4 samples.

Results

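Open chromatin around Bdnf was followed in rat retinal ganglion cells (RGCs) between embryonic day 21 (E21) and postnatal day 11 (P11). Bdnf encodes brain-derived neurotrophic factor, a secreted neurotrophin that signals mainly through the receptor tyrosine kinase TrkB and is known as a survival and growth factor of RGCs. The gene is known for a series of alternative first exons, each with its own promoter, that are spliced to a common coding exon. In neurons, transcription from these promoters responds to electrical activity, and the transcription factor CREB takes part in that response. Assay for Transposase-Accessible Chromatin (ATAC-seq) marks stretches of accessible DNA, such as active promoters and enhancers, as open chromatin regions (OCRs). It measures neither transcription nor the binding of a given factor.

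The members were the OCRs within 100 kb of the Bdnf gene body, which lies at chr3:100768637-100819216 on the Rnor6 build of the rat genome. The window therefore ran over chr3:100668637-100919216. It held 50 OCRs, and OCRs that overlapped by at least 1 bp were merged into 18 regions, out of 228726 regions in all lists. The rule used position only and no measured value.

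The RGCs came from retinas of Sprague Dawley rats and were purified by immunopanning, with negative selection against macrophages and positive selection for Thy1. There were 2 libraries from E21 embryos and 2 from P11 pups, each prepared from 300000 frozen cells of its own litter, with no treatment or genetic change at either stage. A library thus pools the animals of a litter and the RGC subtypes of their retinas, and a smaller share of open cells cannot be told apart from less opening per cell. Purity was not checked here, since marker gene positions on this build were not used.

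Each library had its own list, with 125917 to 166702 OCRs. The build was checked with the genes for β-actin and a glycolytic enzyme. An OCR between the 90.1 and 96.2 percentile of its list lay within 1 kb of Actb in all 4 libraries, and one between the 97.2 and 99.4 percentile within 1 kb of Gapdh. The fold, the authors' enrichment of fragments at the OCR summit over the local background, had a median of 5.69 and 5.47 in the whole E21 lists and 4.62 and 4.84 in the whole P11 lists. The fragments behind an OCR were recovered from its fold and p-value. They are the units the caller counted, and whether both ends of a DNA fragment were counted separately is not stated. The genome-wide background was 4.80 and 5.03 fragments at E21 against 4.30 and 4.17 at P11, and the weakest call had 14 fragments at E21 and 13 at P11. Because the lists differed in this way, each OCR was also given a rank, its percentile from 0 to 100 by −log10 q within its own library. A percentile also depends on how many weak OCRs a list holds, so ranks were computed again among the 120000 best OCRs of each library, and those are given where they change a statement.

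The sequences that bear on this gene are its promoters. RefSeq gives 6 separate transcription starts of Bdnf on another build, GRCr8, where the gene is read from the plus strand and its body is 50580 bp long, the same length as the interval used on Rnor6. From the first, the later starts lie at 1.20, 2.34, 18.2, 20.2 and 20.2 kb on GRCr8. No position was carried from GRCr8 to Rnor6, so no OCR was assigned to a promoter. The 250 bases before the first, the third and the fourth start are shown, from 5′ to 3′, because the first marks the start of the gene body and the others hold the matches to the CREB core and the AP-1 site. Capitals mark those matches.

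The first start, GRCr8 chr3:116619383-116619632, plus strand: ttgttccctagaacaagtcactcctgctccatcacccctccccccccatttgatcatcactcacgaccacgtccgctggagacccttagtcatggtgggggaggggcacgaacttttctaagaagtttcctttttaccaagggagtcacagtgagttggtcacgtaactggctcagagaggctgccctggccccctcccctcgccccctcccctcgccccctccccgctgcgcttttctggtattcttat
The third start, GRCr8 chr3:116621721-116621970, plus strand: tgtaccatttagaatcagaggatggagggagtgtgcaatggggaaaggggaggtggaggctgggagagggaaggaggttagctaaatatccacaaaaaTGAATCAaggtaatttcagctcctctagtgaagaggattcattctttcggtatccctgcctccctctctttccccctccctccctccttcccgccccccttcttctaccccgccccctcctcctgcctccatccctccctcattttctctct
The fourth start, GRCr8 chr3:116637608-116637857, plus strand: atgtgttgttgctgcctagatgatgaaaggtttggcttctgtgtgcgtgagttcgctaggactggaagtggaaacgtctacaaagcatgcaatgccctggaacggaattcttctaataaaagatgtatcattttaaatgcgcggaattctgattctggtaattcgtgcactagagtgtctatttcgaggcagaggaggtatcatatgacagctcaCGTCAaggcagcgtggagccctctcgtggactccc

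The motifs were searched on both strands. The core of the CREB site, TGACG, was found before 1 of the 6 starts, the fourth, as CGTCA from base −35 to base −31 counted from the start, and in 18.2% of all 33469 RefSeq promoters of the same length. The full palindrome TGACGTCA, which contains that core, was before none of the 6 and in 1.59% of all promoters. The AP-1 site TGANTCA, recognised by JUN and FOS dimers, was before the third start and in 6.34% of all promoters. CACGTG, the E-box of the upstream stimulatory factors, was before none and in 5.59%. The general E-box CANNTG, which includes CACGTG, was before 5 of the 6 and in 65.5%. The stretches before the fifth and the sixth start, 20169 and 20225 bp from the first, overlap and share the match CAGCTG. The 6 are therefore not all separate sequences. All matches are of letters and not measured binding.

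**Figure D1:**
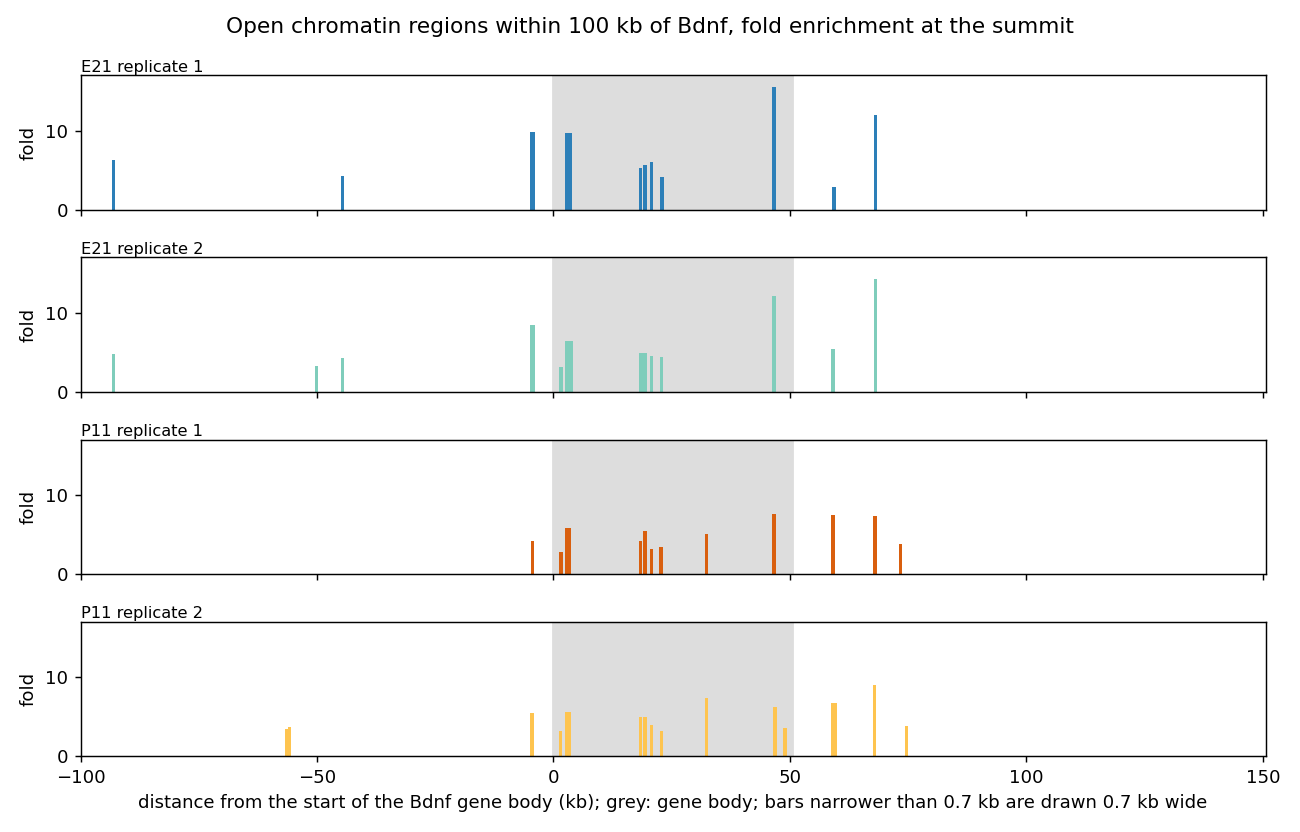
Map of the OCRs within 100 kb of Bdnf in each of the 4 libraries. The horizontal axis is the distance in kb from the start of the gene body (grey band, gene body), and the height of a bar is the fold at the summit of 1 OCR. OCRs near +3.25 kb, between +18.9 and +22.9 kb and near +46.7 kb stand in all 4 libraries, the tallest bars at E21 stand at about +46.7 and +67.9 kb, and no bar lies in the last 75.9 kb of the window.

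Regions are named by the distance in kb of their centre from the start of the gene body, with a minus sign for those before it. Of the 18 regions, 6 lay before the gene, 8 in the gene body and 4 after it. A cluster of 2 regions stood between 1.29 and 4.03 kb after the gene start and another of 3 between 18.1 and 23.2 kb. No region covered the first base of the gene body, and the nearest was the +1.54 kb region. On the far side of the gene no OCR was called in the 75.9 kb between the last region and the end of the window, and the widest gap between regions was 39.5 kb. On GRCr8 the nearest protein-coding neighbours of Bdnf are Kif18a and Lin7c. Whether either reaches into the window on Rnor6 was not examined.

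In all 4 libraries 8 of the 18 regions were called, against 36.0% of the regions in the whole lists. Of these 8, 5 were in the gene body, 1 before it and 2 after it. Each stage had 10 regions called in both of its libraries, and these 8 were among the 10 of either stage. The E21 libraries had 11 and 12 OCRs in the window and the P11 libraries 12 and 15, so the groups touched at 12. The stage means were 11.5 ± 0.707 and 13.5 ± 2.12 OCRs (SD, n = 2 each), a difference smaller than the P11 spread (exact permutation test, two-sided, p = 0.667). The difference of 2 OCRs became 0.5 among the 120000 best OCRs of each library, 0.5 without P11 replicate 2 and 3.5 without P11 replicate 1. The OCRs covered 6821 and 8770 bp at E21 against 7139 and 8754 bp at P11, and these overlapped (exact permutation p = 1). Inside the gene body the counts did separate, with 6 OCRs in each E21 library and 8 and 9 in the P11 libraries (exact permutation p = 0.333). The whole lists separated in the same order, with 125917 and 154394 OCRs at E21 against 154772 and 166702 at P11. So did the counts after the gene, 2 in each E21 library and 3 in each P11 library. Those before the gene, 3 and 4 at E21 and 1 and 3 at P11, did not. With 2 libraries per stage 0.333 is the smallest p the test can give, so no value here could pass 0.05, and a larger p is no evidence that E21 and P11 were equal.

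The highest-ranked region at Bdnf was the +3.25 kb region in the first part of the gene, chr3:100771115-100772666. Its fold was 9.67 and 6.49 at E21 against 5.78 and 5.64 at P11. The E21 values were both higher, and E21 replicate 1 stood well above the other 3 libraries. At the summit there were 325 fragments (95% exact Poisson interval 291 to 362) and 224 (196 to 255) at E21, and 153 (130 to 179) and 174 (149 to 202) at P11. The intervals of E21 replicate 2 and P11 replicate 2 overlapped. As with all intervals given here, they treat fragments as independent, cover counting error only and are not scaled for the depth of the library. In rank the stages overlapped, at the 96.0 and 90.9 percentile at E21 and the 93.9 and 94.9 percentile at P11, a difference of 0.898 points against an SD of 3.60 at E21. The means of the fold were 8.08 ± 2.25 and 5.71 ± 0.0959, a difference of about the E21 SD (exact permutation p = 0.333).

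The extent of that region changed more evenly than its height. It was 1503 and 1532 bp wide at E21 against 1265 and 1239 bp at P11, so that the mean fell by 265.5 bp, more than the SD of 20.5 bp at E21 and 18.4 bp at P11. All 4 libraries began within 34 bp of one another, and the far end made the difference. Both E21 calls reached at least 269 bp further than both P11 calls, over chr3:100772383-100772651. The summits stayed within 27 bp of each other.

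The region nearest to the gene start, at +1.54 kb (chr3:100769924-100770433), was called in 3 libraries and not in E21 replicate 1. The fold was 3.14 in E21 replicate 2 and 2.76 and 3.23 at P11. At the summit there were 109, 74 and 100 fragments in the same order, over a local background of 34.1, 26.2 and 30.3 fragments. The local background was 6.09 to 7.27 times the genome-wide one. In the +3.25 kb region it was nearly the same, at 5.97 to 7.21 times the genome-wide value. These regions lie 0.681 kb apart, and the span over which the caller took the local background is not stated. The background at +1.54 kb may thus include fragments of the stronger +3.25 kb region, and the ranges may not be separate measurements. Whether the stretch at +1.54 kb was itself rich in fragments was not tested.

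The next cluster of the gene body began with the +18.9 kb region, chr3:100786707-100788383, which held 2 OCRs in 3 libraries and 1 long OCR in E21 replicate 2. The highest fold was 5.68 and 4.94 at E21 against 5.48 and 4.95 at P11, and the stages overlapped (exact permutation p = 1). The summit of its best OCR had 133 and 127 fragments at E21 against 87 and 91 at P11. Relative to the genome-wide background these were 27.7 and 25.2 times against 20.2 and 21.8 times, higher in both E21 libraries. The local background was 4.70 and 4.94 times the genome-wide one at E21 against 3.50 and 4.22 times at P11. The rank of the region was lower in both E21 libraries, at 79.9 and 76.4, than in both P11 libraries, at 85.8 and 83.3. The shift of 6.46 points was larger than either SD (2.46 and 1.78) and below the 25 points required for a call. Among the 120000 best OCRs of each library the ranks overlapped, at 78.9 and 69.6 against 81.7 and 76.8.

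In rank the neighbours of the +18.9 kb region went the other way. In the +20.7 kb region the fold was 6.01 and 4.52 at E21 against 3.20 and 3.94 at P11, and the rank was 82.0 and 72.1 against 48.9 and 70.4. In the +22.9 kb region the fold was 4.15 and 4.45 at E21 against 3.48 and 3.25 at P11, and the rank was 64.5 and 70.1 against 56.9 and 51.8. Both were higher in both E21 libraries than in both P11 libraries, but neither shift reached 25 points. Among the 120000 best OCRs the shift was −26.1 points in the +20.7 kb region and −23.4 points in the +22.9 kb region. Neither region falls under the rule for regions described singly, and they, like the +46.7 kb region, are described after their values were seen.

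The +22.9 kb region also changed its shape. It was 581 and 677 bp wide at E21 against 385 and 363 bp at P11, and both E21 calls reached at least 281 bp further at the far end, over chr3:100791597-100791877. Its summit lay 22.864 and 22.860 kb from the gene start at E21 and 22.695 and 22.696 kb at P11. The gap between the stages was at least 164 bp, while replicates differed by at most 4 bp. Both E21 summits lay inside the P11 calls, and the stretch called at E21 alone lay beyond them.

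**Figure D2:**
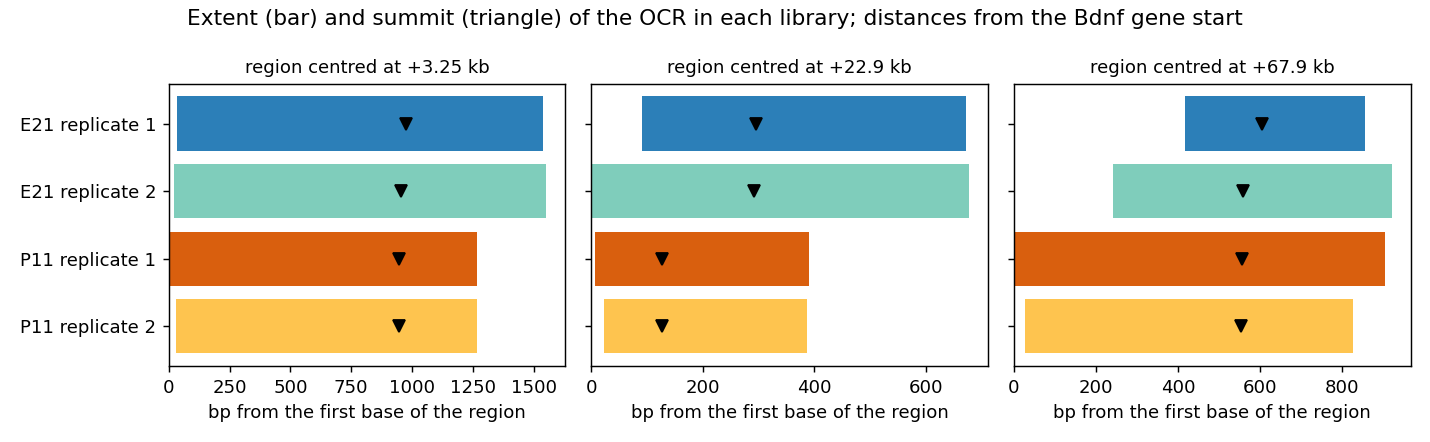
Extent of the OCR (bars) and position of its summit (triangles) in each library for the regions at +3.25, +22.9 and +67.9 kb, in bp from the first base of the region. The far end lies at least 269 and 281 bp further out in both E21 libraries in the first and the second panel, the summit of the second panel sits at least 164 bp further out at E21, and in the third panel both P11 libraries begin at least 214 bp earlier.

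Such shifts of an edge were uncommon. An edge of both E21 libraries lay at least 200 bp beyond both P11 libraries in 2 of the 8 shared regions, against 3.24% of shared regions in the whole lists. The reverse held in 1 of the 8, against 4.66%. It was the +67.9 kb region, where the P11 calls began at least 214 bp earlier. Summits of the stages lay at least 100 bp apart in 1 of the 8, against 7.80%. These limits were set after the Bdnf values were seen. The shares in the whole lists were not matched for width, and a short region leaves little room for such a shift. The regions at +3.25, +22.9 and +67.9 kb spanned 1552, 677 and 920 bp, while the median OCR of a list was 379 to 400 bp wide. Whole widths of the 2 stages did not overlap in 6 of the 8 regions. They were longer at E21 in 4 (23.9% in the whole lists) and longer at P11 in 2 (28.6%).

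The highest mean fold at Bdnf at E21 was in the +46.7 kb region, chr3:100814885-100815811, which ended 3405 bp before the end of the gene body. In E21 replicate 2 the +67.9 kb region stood higher, at 14.3. The fold of the +46.7 kb region was 15.6 and 12.2 at E21 against 7.56 and 6.18 at P11. Both P11 values thus lay below both E21 values. The means were 13.9 ± 2.41 and 6.87 ± 0.974, a ratio of 2.02. There were 105 and 88 fragments at the E21 summits and 50 and 46 at the P11 summits, and the lowest limit of the E21 Poisson intervals, 70.6, was above the highest limit of those at P11, 65.9. In rank the change was smaller, from 88.0 and 83.8 to 81.0 and 72.2, a shift of −9.29 points with an SD of 2.98 and 6.22. Its widths overlapped between the stages. The local background was 1.21 to 1.58 times the genome-wide one, far below that of the clusters near the gene start.

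The nearest region to the end of the gene body, at +48.9 kb, was called in P11 replicate 2 alone. It had 25 fragments, a fold of 3.58 and a rank of 25.3.

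**Figure D3:**
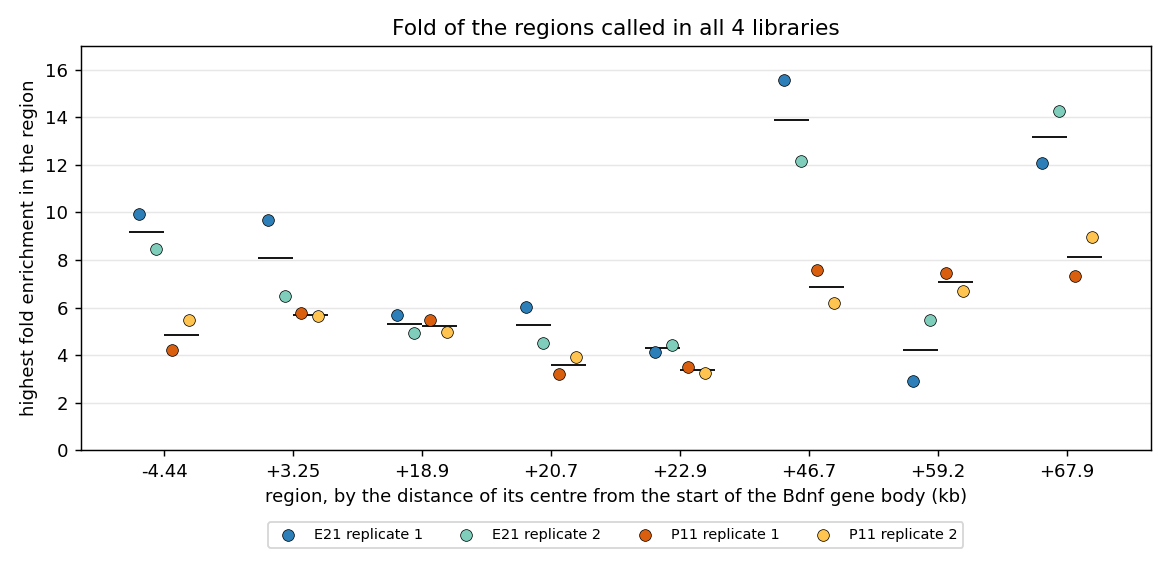
Highest fold of the 8 regions called in all 4 libraries, by the distance of the region's centre from the start of the gene body in kb. Points are libraries and black lines are the means of the 2 libraries of a stage, E21 on the left of each pair. The E21 points lie above the P11 points in 6 regions, the stages overlap at +18.9 kb, and the order is turned at +59.2 kb.

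Among the 8 shared regions the fold was higher in both E21 libraries than in both P11 libraries in 6, and higher at P11 in 1. In the whole lists the same was found in 55.0% and 12.6% of shared regions, so a fall in fold was the usual case. Ranks in the whole lists were higher at E21 without overlap in 4 of the 8 (26.8% in the whole lists) and higher at P11 in 2 (33.1%). The mean rank of the 8 regions was 72.3 and 76.6 at E21 against 71.2 and 75.7 at P11. The stage difference of −1.02 points was smaller than the SD of either stage, 3.03 and 3.22 (exact permutation p = 0.667). Its sign turned, to 0.999 points, without E21 replicate 2, and to 1.26 points when P11 replicate 1 was left out.

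That small difference rested on the +59.2 kb region and on the lengths of the lists. Among the 120000 best OCRs of each library 7 regions were shared, without the +59.2 kb region. Their mean rank was 81.7 and 76.0 at E21, above both P11 values of 61.9 and 66.3, a difference of −14.7 points (exact permutation p = 0.333). In the whole lists the mean rank of the same 7 regions also differed without overlap, by −8.84 points. The +59.2 kb region fell out through its rank of 0.933 in E21 replicate 1. The shortening thus dropped a region that was low at E21, which by itself tilts the mean of the others towards E21. The same difference was not computed over the whole genome, so its usual size is unknown. Among the 120000 best OCRs the ranks of 4 of the 7 were higher at E21 without overlap (33.5% of shared regions in the lists so shortened) and those of 0 were higher at P11 (28.9%). With −log10 q of 5 or more, which also dropped the +59.2 kb region, the mean difference was −11.5 points. With ranks taken among shared regions only, which kept that region, it was −6.61 points.

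Over the 8 regions tested one by one, the smallest exact p of 0.333 became 0.444 for rank and for width and 0.381 for fold after Benjamini-Hochberg adjustment.

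One region upstream of the gene lost rank after birth. The −4.44 kb region, chr3:100763703-100764689, ended 3948 bp before the gene body. The fold was 9.91 and 8.47 at E21 against 4.21 and 5.48 at P11. At the summit there were 142 fragments in each E21 library and 32 and 53 in the P11 libraries. Relative to the genome-wide background of its library, the summit stood at 29.6 and 28.2 times at E21 and 7.44 and 12.7 times at P11. The rank fell from 88.1 and 87.4 to 48.0 and 72.9, by 27.3 points on average, with an SD of 0.467 at E21 and 17.6 at P11. This was the 1 shared region of 8 that met the criterion for a higher rank at E21, against 8.61% in the whole lists. The call rested on the low P11 replicate 1, since without that library none of the shared regions met the criterion, and without P11 replicate 2 there were 2. Among the 120000 best OCRs of each library there were also 2 of 7 (11.3%), this region with a shift of −38.0 points and the +20.7 kb region. The width was 949 and 889 bp at E21 against 366 and 768 bp at P11, and the summits overlapped between the stages.

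One region downstream gained rank. The +59.2 kb region, chr3:100827234-100828527, began 8018 bp after the gene body. The fold was 2.93 and 5.47 at E21 against 7.43 and 6.71 at P11, the only region of the 8 with a higher fold in both P11 libraries. The summits had 16 and 32 fragments at E21 against 41 and 48 at P11, and the 95% Poisson intervals of E21 replicate 2 (21.9 to 45.2) and P11 replicate 1 (29.4 to 55.6) overlapped. In rank it moved from 0.933 and 43.4 to 76.2 and 75.6. The E21 libraries disagreed here, and the shift of 53.8 points had an SD of 30.1 at E21 and 0.424 at P11. This was the 1 shared region of 8 ranked higher at P11 by the criterion, against 12.2% in the whole lists. The call in E21 replicate 1 was near the limit of detection, with a width of 167 bp against 785 bp in replicate 2 and 853 and 1269 bp at P11. A stricter limit on −log10 q, 5 or more, removes that call, and then no region met the criterion. Among the 120000 best OCRs the region was likewise no longer shared, and 0 of 7 regions met it (10.2%).

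The +67.9 kb region, chr3:100836109-100837028, was the second highest in mean rank. The fold was 12.1 and 14.3 at E21 against 7.33 and 8.96 at P11, with 69 and 107 fragments against 46 and 55. Its ranks overlapped, at 79.1 and 88.6 against 78.5 and 84.5 (exact permutation p = 0.667). It was 437 and 679 bp wide at E21 against 904 and 800 bp at P11. Here the fold was lower and the open stretch longer at P11.

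**Figure D4:**
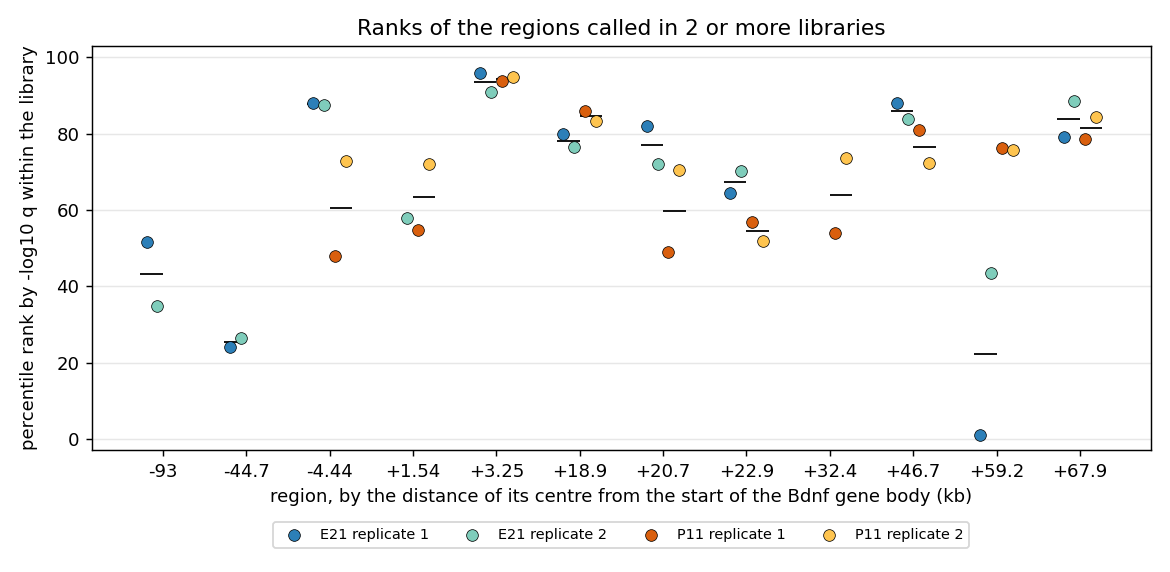
Rank by −log10 q within the library, as a percentile, of the regions called in 2 or more libraries, by the distance of the region's centre from the start of the gene body in kb. Points are libraries and black lines are the means of stages with both libraries called. The +3.25 kb region lies above the 90th percentile in every library, the −4.44 kb region falls at P11, and the +59.2 kb region rises from 0.933 and 43.4 to 76.2 and 75.6.

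Called in both E21 libraries and in neither P11 library were 2 of the 18 regions (7.61% of all regions in the whole lists), and the reverse held for 1 (12.5%). Both E21-specific regions were far upstream. The −93.0 kb region, chr3:100675319-100675905, had a fold of 6.38 and 4.81, with 36 and 28 fragments and ranks of 51.6 and 34.7. The −44.7 kb region, chr3:100723749-100724203, had a fold of 4.31 in each library, with 24 and 25 fragments and ranks of 24.1 and 26.4. The first was of middle rank and the second was weak. A P11 list needed at least 13 fragments for a call, so at P11 either region could have held fewer fragments than that without being detected. A flank of 50 kb in place of 100 kb leaves 1 of the 2.

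The P11-specific region lay inside the gene, at +32.4 kb (chr3:100800766-100801277), between the second cluster and the +46.7 kb region. The fold was 5.08 and 7.36, with 29 fragments (95% Poisson interval 19.4 to 41.6) and 41 (29.4 to 55.6). Its ranks were 53.9 and 73.7 and its widths 488 and 498 bp, and the summits of the replicates lay 32.276 and 32.282 kb from the gene start. It was called in neither E21 library, where a call needed at least 14 fragments. It was the one region of the gene body with calls in both libraries of 1 stage and none in the other. The count of 1 depended on the libraries. Leaving out replicate 2 of either stage gave 2, and leaving out P11 replicate 1, so that a call in P11 replicate 2 alone is enough, gave 5.

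The remaining regions were seen in a single library, 6 of the 18, and 4 of them in P11 replicate 2, which had the longest list. Their folds ran from 3.31 to 3.87, their summits held 17 to 25 fragments and their ranks lay between 6.49 and 25.3. All 6 were therefore weak calls in the lower part of their lists.

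Counted in bases, 11532 bp of the window were open in at least 1 library, and 39.6% of them were open in all 4 (31.8% in the whole lists). Bases open in both E21 libraries and neither P11 library made up 14.2% (7.30% in the whole lists), and those open in both P11 libraries only made up 8.06% (11.7%). The E21-only stretches of at least 50 bp in the gene body were the far ends of the +3.25 and +22.9 kb regions, 269 and 281 bp. The longest P11-only stretch, also in the gene body, was the 474 bp of the +32.4 kb region. Over the whole window the longest E21-only stretch was the 477 bp of the −93.0 kb region.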

How the data were processed

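ATAC-seq of 2 E21 and 2 P11 libraries was analysed from the OCR list of each library. Reads were taken by the authors through AIAP, an integrated ATAC-seq pipeline, and OCRs were called in each library without pooling. The submitters' processing notes name MACS2 and the builds Rnor_6.0 and rn6, and the version and settings of the caller are not given in the sources used here. Each deposited list gives, per OCR, the authors' score, the fold enrichment at the summit (a ratio), −log10 of the p-value and of the q-value (lowest 2.01 to 2.02 for q) and the summit position. Reads per OCR were not used here, so the study's DESeq2 test was not rerun.

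Duplicate lines were counted once (there were 0). OCRs overlapping by at least 1 bp in any lists formed a region. Its rank and summit in a library are those of its best OCR by −log10 q, and its fold is the highest of its OCRs. Its width runs from its first to its last called base. A region called in all libraries counted as rank-shifted when the ranks of the stages did not overlap and their means were at least 25 points apart. Summit fragments and local background were solved from fold and p-value, and were whole within 0.02 for 100% of the OCRs solved. Counting error at the summit, the precision that depth allows, is given as a 95% exact Poisson interval. The interval takes the counts as independent, and it is too narrow if both ends of a DNA fragment were counted separately. Values per stage are means ± SD. Stages were compared by exact two-sided permutation tests over the 4 libraries, with litters as the replicates. The code was tested on simulated lists (Python 3.11.15, SciPy 1.17.1).

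Regions described singly were the nearest to the start and to the end of the gene body, the 3 of highest mean rank, and all stage-specific or rank-shifted ones. The window, the lists and this rule were chosen with earlier results of these data known. Genes of the BDNF pathway, cell type markers, genes most like Bdnf and motifs in OCRs had been planned and need positions or sequence on Rnor6, so they were not analysed here. The motifs were searched in RefSeq promoters (GRCr8) in their place. Alternatives were a −log10 q of at least 5, the 120000 best OCRs of each library, a flank of 50 kb, a reciprocal overlap of 50%, rank by fold, ranks among shared regions, minimum differences of 10 and 40 points, each library left out, and a replicate block.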

Additional observations from a re-analysis of the deposited data

How the results depend on the processing

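The number of regions ran from 12 (equal numbers of OCRs) to 22 (reciprocal overlap) and that of regions in all libraries from 6 (reciprocal overlap) to 9, both within 1.5 times of the 18 and 8 reported. The difference in OCR number kept its sign and ran from 0.5 (equal numbers) to 2.5 (−log10 q of at least 5), and from 0.5 to 3.5 with one library left out. The difference in covered bases, 151 bp higher at P11, was −156.5 bp with equal numbers of OCRs, and −823.5 to 1125.5 bp with one library left out (negative without E21 replicate 1 and without P11 replicate 2, at −656.5 bp). The difference in mean rank of shared regions, −1.02 points, was −14.7 with equal numbers, −11.5 with a −log10 q of at least 5, −6.61 with ranks among shared regions and −3.37 with rank by fold, and ran from −3.29 to 1.26 points with one library left out (0.999 without E21 replicate 2). Equal numbers and the stricter −log10 q both dropped the +59.2 kb region, which was low at E21. Regions ranked higher at E21 numbered 2 with equal numbers, 0 with the reciprocal overlap, 3 with a minimum of 10 points, 0 with 40 points, and 0 to 2 with one library left out. Those ranked higher at P11 numbered 0 with a −log10 q of at least 5, 0 with equal numbers and 0 with the reciprocal overlap. Regions whose ranks were apart and higher at P11 numbered 0 with equal numbers, an alternative chosen after seeing the data. A flank of 50 kb left 1 E21-specific region. P11-specific regions numbered 2 with the reciprocal overlap and 1 to 5 with one library left out, a setting that asks for fewer calls.

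The replicate block, which compares same-numbered libraries, gave differences of 2 OCRs (sign-flip permutation p = 0.5, the smallest that 2 pairs allow), 151 bp and −1.02 points, and changed no count. The numbers pair no libraries by any label, and deviations of same-numbered libraries correlated at 0.028 over the shared regions of the whole lists. Depth limits absence, since the weakest calls of the lists had 13 or 14 fragments. A call needed more where the local background was high, as near the gene start.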
